A study of Mus musculus with 26 samples.

Results

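The mRNAs of 10 Tudor domain proteins of germ granules, *Tdrd1*, *Tdrkh*, *Tdrd3*, *Tdrd5*, *Tdrd6*, *Tdrd7*, *Tdrd9*, *Tdrd12*, *Rnf17* and *Stk31*, were followed in adult mouse testes. By the annotation of the table they lie on chromosomes 19, 3, 14, 1, 17, 4, 12, 7, 14 and 6, in that order. They were taken from a table of 51124 genes by their symbols, with earlier results of these data known, and all 10 were among the 23782 genes tested. Whole testes of wild-type, *10xPerf* and *10xBulge* mice were sequenced, with 2 mice and 2 libraries per genotype (wild-type libraries N1 and N2, *10xPerf* libraries N3 and N4, *10xBulge* libraries N5 and N6). *10xPerf* mice carry 10 sites that pair fully with piR-A, an abundant pachytene piRNA, in the 3′ untranslated region of *Ythdc2*. *10xBulge* mice carry 10 sites at the same place that do not pair with piRNA nucleotides 10 and 11. The knock-in lines were made by Cas9 in B6D2F1/J hybrid embryos and bred as homozygotes. By the labels each library is from a different mouse, so that p-values measure the spread between 2 mice per genotype.

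Germ granules are cytoplasmic bodies without a membrane in which germ cells gather PIWI proteins, piRNA precursors and RNA helicases. In spermatocytes they lie between mitochondria, and in round spermatids they merge into the chromatoid body. Tudor domains bind methylated arginines, which PIWI proteins carry near their amino termini, and a protein with several such domains can hold several partners together. In mice, loss of *Tdrd1*, *Tdrd9*, *Tdrd12* or *Tdrkh* derepresses transposons and stops germ cells in meiosis, whereas loss of *Tdrd6*, *Tdrd7* or *Rnf17* stops them as spermatids.

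Values are normalized read counts, which the authors obtained with DESeq2, and a difference between genotypes is a log2 fold change of the normalized count plus 1, tested in limma over all 23782 genes with a threshold of 0.1 on the adjusted p. Reads per library came to roughly 41.1 to 61.6 M, and each of the 10 genes had at least 729 normalized counts in every library. The targeted gene *Ythdc2* was at 827 (N1) and 2412 (N2) normalized counts in the wild-type mice, 1334 (N3) and 1136 (N4) in the *10xPerf* mice, and 1202 (N5) and 2458 (N6) in the *10xBulge* mice, and it was past the threshold in none of the comparisons. All 12 spermatid markers were lower in *10xBulge* than in wild type, and their summed level was 497900 to 695100 in wild type, 601600 to 663500 in *10xPerf*, and 4314 to 7320 in *10xBulge*, with none at 0. All 7 macrophage markers, 6 of 8 Leydig markers and 6 of 10 Sertoli markers were higher. Of 12 spermatogonia markers 3 were higher and 1 lower, and of 12 spermatocyte markers 1 was higher and 1 lower. Of all genes tested, 11.4% were higher and 23.0% lower in *10xBulge* than in wild type. None of these markers passed the threshold in *10xPerf* against wild type. In whole testes, fewer cells of a type and less RNA per cell cannot be told apart. The wild-type library N1 stood below N2 for all 10 Tudor domain genes, and comparisons with wild type depend on it, as the values without N1 beside the results show.

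Of the 10 genes, 1 passed the threshold in 1 of the 3 comparisons. *Rnf17* was lower in *10xBulge* than in *10xPerf*, with a log2 fold change of -1.45 (standard error 0.49, limma adjusted p = 0.0557). That comparison called 24.1% of all genes tested lower, so that 1 of 10 is no more than the background. The other 9 genes did not pass in any comparison, and neither did *Rnf17* against wild type. Relative to the mean of the 10 genes in each library, 4 genes lay higher and 4 lower in both *10xBulge* libraries than in the 4 others, but none of the 10 passed the threshold in limma on that scale. The 10 genes are centred on their own mean there, so that a rise of some lowers others. Of all genes tested, 14.4% and 26.6% lay so, which is not a like comparison, since they are not centred on their own mean.

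**Figure D1:**
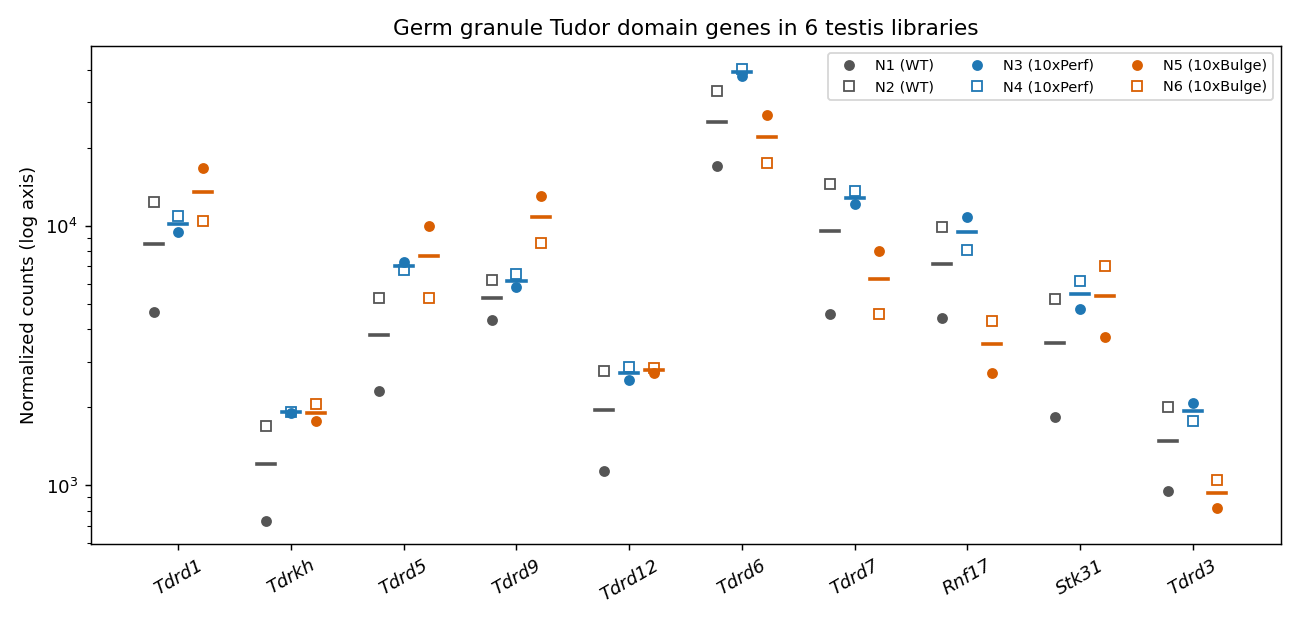
Normalized counts (log axis) of the 10 genes in each library, with horizontal bars at the mean of each genotype. The wild-type library N1 lies below N2 for all 10 genes, and the *10xBulge* values of *Rnf17* and *Tdrd3* lie below both *10xPerf* values.

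Compared per kilobase of the longest GENCODE transcript, *Tdrd6* had the highest level of the 10 in every library, with a mean over the 6 libraries of 4084 normalized counts per kilobase. *Tdrd7* followed with 2577, *Tdrd1* with 2076 and *Tdrd5* with 1638. *Tdrd9*, *Stk31* and *Rnf17* had 1542, 1481 and 1275, and *Tdrd12* had 678. At the lower end were *Tdrkh* with 295 and *Tdrd3* with 274. Among 17505 tested protein-coding genes the levels per kilobase ran from percentile 51.9 for *Tdrd3* to percentile 95.2 for *Tdrd6*. *Tdrd6* was at rank 1 and *Tdrkh* and *Tdrd3* shared ranks 9 and 10 in all 6 libraries, while the genes between them changed ranks between libraries, so that neighbours there cannot be ordered beyond their spread. *Tdrd7* ranked 2 in each wild-type and *10xPerf* library, and 5 in N5 and 6 in N6. *Rnf17* ranked between 3 and 6 in wild type and *10xPerf*, and 8 in N5 and 7 in N6.

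*Tdrd1* encodes a protein that binds MILI at the cement between mitochondria, where primary piRNAs are loaded. It was at 4678 (N1) and 12328 (N2) normalized counts in the wild-type mice, 9497 (N3) and 10949 (N4) in the *10xPerf* mice, and 16675 (N5) and 10474 (N6) in the *10xBulge* mice. N5 was the highest and N1 the lowest, and the genotypes overlapped. In limma *10xPerf* differed from wild type by 0.43 on the log2 scale (standard error 0.52, adjusted p = 0.874), and *10xBulge* differed by 0.80 (standard error 0.52, adjusted p = 0.296), both within the spread between replicates. Without N1 they were -0.27 and 0.10.

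*Tdrkh* encodes the mitochondrial protein TDRKH, also known as TDRD2, which has KH domains beside its Tudor domain and brings PIWI proteins to the enzymes that trim piRNA ends. It was at 729 (N1) and 1695 (N2) normalized counts in the wild-type mice, 1899 (N3) and 1924 (N4) in the *10xPerf* mice, and 1766 (N5) and 2053 (N6) in the *10xBulge* mice. Every knock-in library was above both wild-type libraries, although N2 lay close to N5. Both lines stood 0.78 above wild type on the log2 scale, with a 95% confidence interval of -0.27 to 1.83 for *10xPerf* (adjusted p = 0.853 in limma) and of -0.27 to 1.82 for *10xBulge* (adjusted p = 0.251 in limma). These values rested on N1, and without it they were 0.17 for both lines, and without N2 they were 1.39 and 1.38. Between the knock-in lines the difference was -0.0056 (95% confidence interval -1.05 to 1.04), an interval that still holds a change of 1 in either direction.

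*Tdrd5* encodes a protein of the same granules and of the chromatoid body. It was at 2306 (N1) and 5288 (N2) normalized counts in the wild-type mice, 7255 (N3) and 6764 (N4) in the *10xPerf* mice, and 10041 (N5) and 5299 (N6) in the *10xBulge* mice. The knock-in libraries were all above the wild-type libraries, with N6 only just above N2. With both wild-type libraries it had the highest fold against wild type of the 10 genes in either line, which was 2.005 for *10xPerf*, or 1.00 on the log2 scale (standard error 0.51, adjusted p = 0.853 in limma), and 2.088 for *10xBulge*, or 1.06 (standard error 0.51, adjusted p = 0.160 in limma). Without N1 the log2 fold changes were 0.41 and 0.46, and in *10xBulge* that of *Tdrd9* was then higher, at 0.77.

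*Tdrd9* encodes an RNA helicase with a Tudor domain that acts with MIWI2 in the silencing of transposons in fetal germ cells. It was at 4355 (N1) and 6208 (N2) normalized counts in the wild-type mice, 5807 (N3) and 6529 (N4) in the *10xPerf* mice, and 13015 (N5) and 8575 (N6) in the *10xBulge* mice. Both *10xBulge* libraries were above the 4 others. The wild-type mean was 5281 ± 1310 (SD, n = 2) and the *10xBulge* mean was 10795 ± 3139 (SD, n = 2), a log2 fold change of 1.02 (standard error 0.42, unadjusted p = 0.0359 and adjusted p = 0.103 in limma), just outside the threshold. Against *10xPerf* the difference was 0.78 (limma adjusted p = 0.194), and *10xPerf* itself stood 0.24 above wild type (limma adjusted p = 0.900). Without N1 the *10xBulge* value against wild type was 0.77 (limma adjusted p = 0.335) and the *10xPerf* value -0.012. Leaving out N6 moved the value against wild type to 1.32 (limma adjusted p = 0.0590) and leaving out N5 moved it to 0.72 (limma adjusted p = 0.304).

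*Tdrd12* encodes a further helicase of this kind, needed for secondary piRNAs. It was at 1135 (N1) and 2764 (N2) normalized counts in the wild-type mice, 2551 (N3) and 2860 (N4) in the *10xPerf* mice, and 2722 (N5) and 2830 (N6) in the *10xBulge* mice. Apart from N1, the libraries lay within a narrow range, with 0.61 for *10xPerf* and 0.65 for *10xBulge* against wild type on the log2 scale (limma adjusted p = 0.853 and 0.346). Without N1 these were -0.033 and 0.0060. Between the knock-in lines the difference was 0.039 (95% confidence interval -1.03 to 1.11, limma adjusted p = 0.960).

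Promoter windows, from 250 bases before to 50 bases after the start of a transcript, are listed by RefSeq on GRCm38.p6 for 8 of the 10 genes. They were searched on both strands for the words CAACGG, then CAACTG, also TAACGG, and last TAACTG, the letters that MYB proteins prefer, since A-MYB (*Mybl1*) is known to drive genes of the pachytene piRNA pathway. A match was found for 4 genes, among them *Tdrkh*, *Tdrd5* and *Tdrd7*, in 6 of 14 windows (42.9%), against 28.3% of all 32851 windows. Windows of 1 gene can overlap, and 1 match is counted in 2 of the 6. By gene, 4 of 8 had a match, against 31.1% of 27025 genes. The 8 genes had 14 windows and the 27025 genes had 32851, and more windows per gene give more room for a match. By gene, the windows of the 8 had 55.7% to 76.0% GC, against a median of 52.7% over all windows. Neither difference was adjusted for. A match is only a description of these letters. The following stretches, read along the strand of the gene, show for each of these named genes 1 match upstream of a start, with the matched bases in capitals, and for *Tdrd7* the match lies on the opposite strand.
Tdrkh, chr3:94413063-94413092, plus strand: ttccccgggctcTAACTGgctgtggacgtg
Tdrd5, chr1:156303341-156303370, minus strand: acctgcggcgcgCAACGGcagcgcgggtgc
Tdrd7, chr4:45965242-45965271, plus strand: tggggcctttggCAGTTGatgtaggtcatg

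*Mybl1* itself was at 2152 (N1) and 5110 (N2) normalized counts in the wild-type mice, 5351 (N3) and 4226 (N4) in the *10xPerf* mice, and 2498 (N5) and 4859 (N6) in the *10xBulge* mice. The gene is also on the list of partner genes below, but it was named for this motif and is outside the rule for named genes. *10xBulge* differed from wild type by 0.071 on the log2 scale (standard error 0.52, limma adjusted p = 0.939), and N1 was the lowest library for this gene too.

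*Tdrd6* encodes the large scaffold of the chromatoid body. It was at 17117 (N1) and 33283 (N2) normalized counts in the wild-type mice, 37880 (N3) and 40476 (N4) in the *10xPerf* mice, and 26783 (N5) and 17446 (N6) in the *10xBulge* mice. The *10xPerf* libraries were above both others without overlap, and wild type and *10xBulge* overlapped. With a standard error of 0.48, *10xPerf* stood 0.71 above wild type on the log2 scale (limma adjusted p = 0.853), and *10xBulge* was at -0.14 (limma adjusted p = 0.857). Without N1 the values were 0.23 and -0.62. Between the knock-in lines it was -0.86 (limma adjusted p = 0.214).

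*Tdrd7* encodes a chromatoid body protein that is also required in the lens of the eye. It was at 4602 (N1) and 14530 (N2) normalized counts in the wild-type mice, 12121 (N3) and 13645 (N4) in the *10xPerf* mice, and 7988 (N5) and 4566 (N6) in the *10xBulge* mice. The wild-type pair spanned the range of all other libraries except N6, which lay slightly below N1. Between the knock-in lines, which did not overlap, the log2 fold change was -1.09 (standard error 0.57, limma adjusted p = 0.187). Against wild type it was 0.65 for *10xPerf* (limma adjusted p = 0.853) and -0.44 for *10xBulge* (limma adjusted p = 0.616), and without N1 it was -0.18 and -1.27.

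*Rnf17*, also known as *Tdrd4*, encodes a protein with a RING domain and several Tudor domains that forms granules of its own in late spermatocytes and spermatids. It was at 4424 (N1) and 9884 (N2) normalized counts in the wild-type mice, 10801 (N3) and 8121 (N4) in the *10xPerf* mice, and 2717 (N5) and 4318 (N6) in the *10xBulge* mice. Both *10xBulge* libraries were below the 4 others, with N6 next to N1. Against *10xPerf*, with means of 9461 ± 1895 (SD, n = 2) and 3517 ± 1132 (SD, n = 2), the gene was 2.73-fold lower (log2 fold change -1.45, 95% confidence interval -2.56 to -0.34, limma adjusted p = 0.0557). The difference from wild type was -0.95 (95% confidence interval -2.06 to 0.16, limma adjusted p = 0.190), while *10xPerf* stood 0.50 above wild type (limma adjusted p = 0.858). Without N1 these became -1.53 (limma adjusted p = 0.101) and -0.078. The call against *10xPerf* was lost without N3 (adjusted p = 0.315), without N4 (0.147) and without N5 (0.174), with log2 fold changes of -1.25, -1.66 and -1.12 in limma, and with scaling by library totals (-1.20, adjusted p = 0.123).

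Spermatid markers moved in the same comparison, with a median log2 fold change of -6.00 for the 12 markers and all 12 lower in *10xBulge* than in *10xPerf*, and their part in the lower level of *Rnf17* was not tested. *Acr*, the spermatid marker with the smallest change, named after its value was seen, had a log2 fold change of -1.13 (limma adjusted p = 0.0864). Of 12 spermatocyte markers, 2 were lower and 0 higher in this comparison, with a median of -0.38, and their summed level was 36920 to 49160 in *10xPerf* and 21930 to 35210 in *10xBulge*. Their mean log2 level overlapped, at 11.00 (N3) and 10.86 (N4) against 10.52 (N5) and 10.93 (N6). Of all genes tested, 24.1% were lower and 12.9% higher.

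*Stk31*, or *Tdrd8*, encodes a protein with a Tudor domain and a kinase domain. It was at 1842 (N1) and 5216 (N2) normalized counts in the wild-type mice, 4800 (N3) and 6165 (N4) in the *10xPerf* mice, and 3742 (N5) and 7004 (N6) in the *10xBulge* mice. Both the wild-type and the *10xBulge* pair were widely spread, and the genotypes overlapped. With a standard error of 0.56, *10xPerf* stood 0.81 and *10xBulge* 0.72 above wild type on the log2 scale (limma adjusted p = 0.853 and 0.372). Without N1 they stood at 0.060 and -0.027. In the fit of all libraries the knock-in lines differed by -0.087 (limma adjusted p = 0.927).

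*Tdrd3*, unlike the others, encodes a widely expressed protein, known as the partner of the topoisomerase TOP3B. It was at 954 (N1) and 2008 (N2) normalized counts in the wild-type mice, 2086 (N3) and 1777 (N4) in the *10xPerf* mice, and 821 (N5) and 1048 (N6) in the *10xBulge* mice. The knock-in lines did not overlap, while N1 lay between the *10xBulge* libraries. Between the knock-in lines the log2 fold change was -1.05 (95% confidence interval -2.08 to -0.031, unadjusted p = 0.0447 and adjusted p = 0.115 in limma), and the adjusted p fell under the threshold without N1 (0.0760) and without N2 (0.0767), libraries that enter this comparison only through the shared spread. Against wild type *10xPerf* stood 0.48 higher (limma adjusted p = 0.856) and *10xBulge* was at -0.58 (limma adjusted p = 0.381), and without N1 the values were -0.061 and -1.11.

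In *10xPerf* against wild type, 0 of the 10 genes passed the threshold in limma, and 0 had an unadjusted p under 0.05, with adjusted p from 0.853 to 0.900. Over all genes tested, 0.467% were called higher and 0.492% lower. All 10 log2 fold changes were above 0, from 0.24 for *Tdrd9* to 1.00 for *Tdrd5*, with a median of 0.63 against 0.018 for all genes tested. This direction rested on N1. Without it, 4 of the 10 were above 0 and the median was -0.022, and without N2 the median was 1.22. The libraries of 3 genes, *Tdrkh*, *Tdrd5* and *Tdrd6*, did not overlap between the genotypes and were higher in *10xPerf*, and 0 were lower, against 20.2% and 19.8% of all genes.

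In *10xBulge* against wild type, 0 of the 10 passed in limma and 1, *Tdrd9*, had an unadjusted p under 0.05. Over all genes tested, 11.4% were called higher and 23.0% lower. With scaling by library totals the share of calls over all genes that were higher moved from 33.2% to 55%. The log2 fold changes of the 10 genes ran from -0.95 for *Rnf17* to 1.06 for *Tdrd5*, with 6 above 0 and 4 below, and a median of 0.69 against -0.026 for all genes. This median depended on which wild-type library was kept. Without N1, 5 of the 10 were above 0 with a median of -0.010, and without N2, 8 were above 0 with a median of 1.28. The libraries did not overlap for 3 genes that were higher, *Tdrkh*, *Tdrd5* and *Tdrd9*, and 1 that was lower, *Rnf17*, against 28.9% and 33.2% of all genes. Without N6, the log2 fold changes of 7 of the 10 were above 0, with a median of 0.45. With library totals *Tdrkh*, *Tdrd5* and *Tdrd9* passed, and with the GC trend of each library removed *Tdrd5* and *Tdrd9* passed as higher and *Rnf17* as lower. Of all genes, 24.4% were then called higher with library totals, and 16.7% higher and 26.3% lower with the GC trend removed.

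In *10xBulge* against *10xPerf*, *Rnf17* alone of the 10 passed, as lower, and 2 genes, *Rnf17* and *Tdrd3*, had an unadjusted p under 0.05 in limma. Over all genes tested, 12.9% were called higher and 24.1% lower, so that 1 of 10 lower is no more than the background. With scaling by library totals, 49.8% of all calls were higher in place of 34.9%. The log2 fold changes ran from -1.45 for *Rnf17* to 0.78 for *Tdrd9*, with a median of -0.047 against -0.067 for all genes. The libraries of *Rnf17*, *Tdrd3*, *Tdrd6* and *Tdrd7* were lower without overlap and those of *Tdrd9* higher, 4 and 1 genes against 35.3% and 30.7% of all genes. The 2 comparisons with wild type share N1 and N2, and the 2 comparisons with *10xBulge* share N5 and N6, so that they are not independent of each other.

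**Figure D2:**
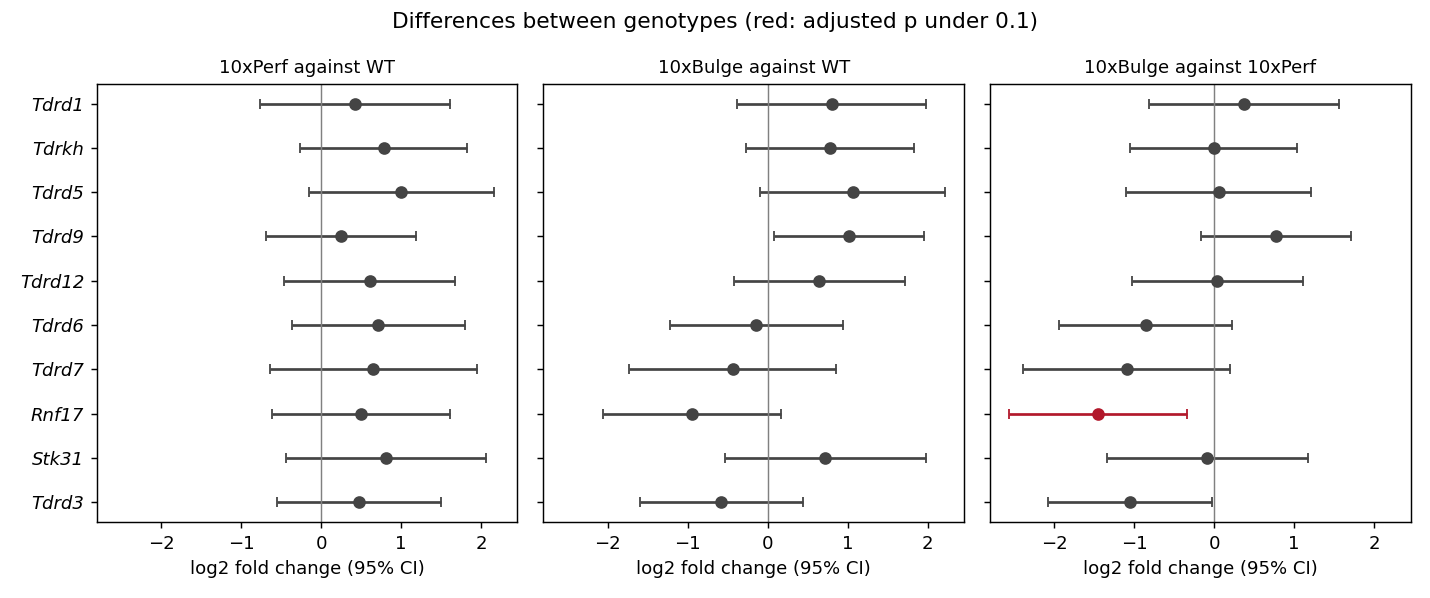
Log2 fold changes of the 10 genes with 95% confidence intervals from limma in the 3 comparisons. The interval of *Rnf17* between the knock-in lines, in red, is the one that passed an adjusted p of 0.1, and besides it those of *Tdrd9* in *10xBulge* against wild type and of *Tdrd3* between the knock-in lines leave out 0.

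The wild-type replicates were far apart for this family. N1 was below N2 for all 10 genes, by 0.51 on the log2 scale for *Tdrd9* to 1.66 for *Tdrd7*, with a median difference of -1.21 against 0 for all genes tested. Summed over the family, N1 had 42140 normalized counts and N2 93200, against 94700 and 99210 in *10xPerf* and 86270 and 63610 in *10xBulge*. Across protein-coding genes this replicate difference moved with the GC content of the transcript, from a median of -0.79 in the tenth of genes with the lowest GC content to 0.43 in the tenth with the highest. Between N5 and N6 these medians ran from -0.70 to 0.50, and between N3 and N4 from 0.13 to -0.31. The 10 genes had 40.1% to 51.7% GC, and 8 of them were below the median of 49.96%. All 10 nevertheless had a difference below the median of their GC class. The shortfall in N1 was thus larger for the family than that median. A shortfall in N1 was not particular to the family. The spermatocyte markers had a mean log2 level of 10.25 in N1 and 11.13 in N2, and *Ythdc2* was lower in N1 too. These means were 11.18 and 11.45 for the partner genes, 8.65 and 8.85 for spermatogonia markers, and 13.83 and 13.68 for spermatid markers. The source of the shortfall was not tested.

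**Figure D3:**
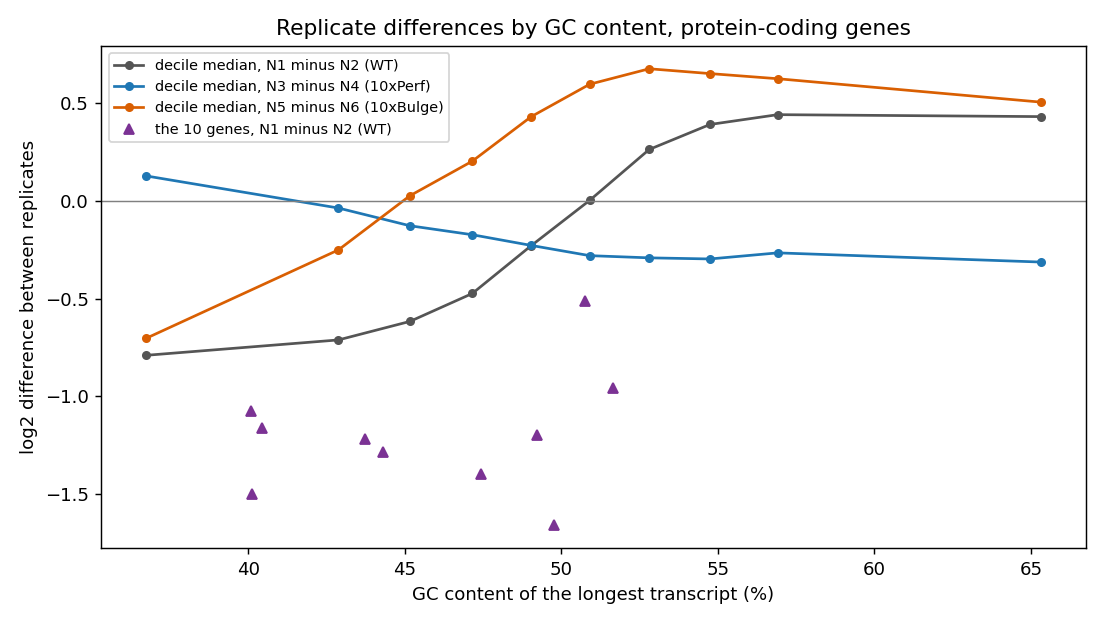
Log2 differences between the 2 libraries of a genotype against the GC content (%) of the longest transcript, as medians of 10 equal classes of 12426 protein-coding genes (lines) and for the 10 Tudor domain genes between N1 and N2 (triangles). All triangles lie under the grey line of N1 minus N2.

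To set aside differences that all 10 genes share, each log2 level was also expressed relative to the mean log2 level of the 10 genes in the same library. On this relative scale the values add up to 0 in a library, so that a rise of some genes lowers others. *Rnf17* stood at 0.69 in N1, 0.65 in N2, 0.78 in N3 and 0.33 in N4, against -0.97 in N5 and -0.16 in N6. *Tdrd7* stood at 0.75 in N1, 1.21 in N2, 0.95 in N3 and 1.07 in N4, against 0.58 in N5 and -0.083 in N6. *Tdrd3* stood at -1.52 in N1, -1.64 in N2, -1.59 in N3 and -1.87 in N4, against -2.70 in N5 and -2.21 in N6. In each of these, and in *Tdrd6* by a small margin (2.33 in N5 against 2.41 in N2), both *10xBulge* libraries were below the 4 others.

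On the same relative scale *Tdrd9* stood at 0.67 in N1, -0.016 in N2, -0.11 in N3 and 0.011 in N4, against 1.29 in N5 and 0.83 in N6. *Tdrd1* stood at 0.77 in N1, 0.97 in N2, 0.60 in N3 and 0.76 in N4, against 1.64 in N5 and 1.12 in N6. *Tdrkh* and *Tdrd12* were also above the 4 other libraries in both *10xBulge* libraries, and *Tdrd5* and *Stk31* overlapped. Thus 4 genes were higher and 4 lower without overlap. Of all genes tested, 14.4% and 26.6% were so when the mean of the 10 genes was subtracted from them, but this is not a like comparison, since the 10 genes alone are centred on their own mean. These are descriptions of 2 libraries against 4 and carry no test. In limma with this scaling, *Rnf17* between the knock-in lines had a log2 difference of -1.12 (adjusted p = 0.178) and none of the 10 genes passed in any comparison.

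As shares of the family's summed normalized counts, *Tdrd6* made up 35.7% to 40.8% in the wild-type and *10xPerf* libraries, and 31.1% in N5 and 27.4% in N6. *Rnf17* made up 8.19% to 11.4% in those 4 libraries, and 3.15% in N5 and 6.79% in N6. *Tdrd9* made up 6.13% to 10.3%, and 15.1% in N5 and 13.5% in N6. *Tdrd1* went from 10.0% to 13.2% in the 4 libraries to 19.3% in N5 and 16.5% in N6.

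**Figure D4:**
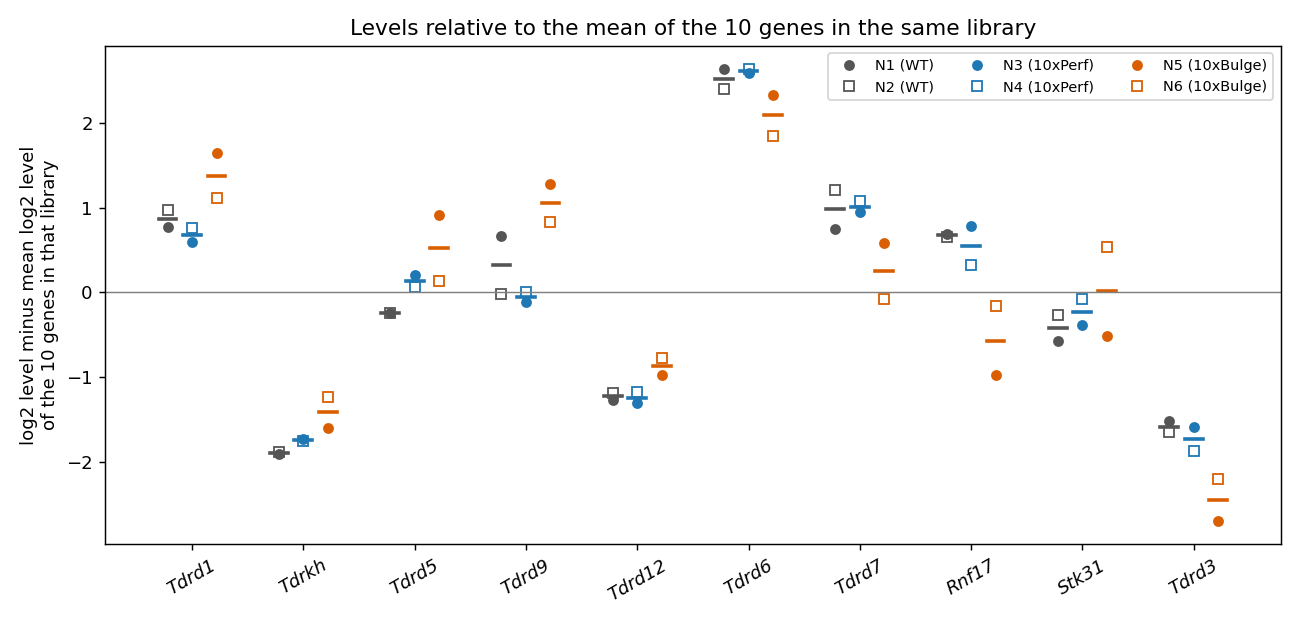
Log2 level of each gene minus the mean log2 level of the 10 genes in the same library, with bars at genotype means. *Tdrd1*, *Tdrkh*, *Tdrd9* and *Tdrd12* lie higher and *Tdrd6*, *Tdrd7*, *Rnf17* and *Tdrd3* lower in both *10xBulge* libraries than in the 4 other libraries.

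The Tudor domain proteins work with PIWI proteins, helicases and piRNA processing enzymes. A list of 17 genes of the piRNA pathway and of germ granules, called partner genes here, was compared in the same fit. It also holds *Mybl1* and *Btbd18*, and not all of its products lie in the granules. In *10xPerf* against wild type 0 of 17 passed in limma. In *10xBulge* against wild type 3 were higher and 1 lower, with a median log2 fold change of 0.37. Over all genes tested, 11.4% were higher and 23.0% lower, with a median of -0.026. *Piwil4*, which encodes MIWI2, was higher (1.38, limma adjusted p = 0.0967), as were *Fkbp6*, a cochaperone of piRNA loading (1.07, limma adjusted p = 0.0792), and *Exd1*, a partner of TDRD12 (1.04, limma adjusted p = 0.0854). The level of *Piwil4* was low, at 46 (N1) and 28 (N2) normalized counts in wild type and 117 (N5) and 78 (N6) in *10xBulge*. *Gtsf1*, whose product assists PIWI slicing, was lower (-1.39, limma adjusted p = 0.0275). *Mael*, the partner with the highest mean, stood at 27365 and 40528 normalized counts in the wild-type mice and at 27030 and 26648 in the *10xBulge* mice (log2 fold change -0.31, limma adjusted p = 0.631). Against *10xPerf*, 4 partners were higher, with *Pnldc1*, the trimmer of piRNA ends, added to those 3 (1.27, limma adjusted p = 0.0642), and 1, *Gtsf1*, was lower. That comparison called 12.9% of all genes higher and 24.1% lower.

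Tudor domains of several proteins of this family, though not of all, bind arginines methylated by PRMT5 and its cofactor WDR77. Of 11 arginine methylation genes tested, 0 passed in *10xPerf* against wild type in limma. In *10xBulge* against wild type 3 were higher, *Prmt9* (1.97, limma adjusted p = 0.0155), *Prmt3* (1.73, limma adjusted p = 0.0168) and *Clns1a* (1.07, limma adjusted p = 0.0746), and 1 lower, *Carm1* (-1.24, limma adjusted p = 0.0604). *Prmt7*, with the highest mean of the list, had a log2 fold change of -0.085 (limma adjusted p = 0.922). Against *10xPerf* 5 were higher, led by *Prmt3*, *Prmt9* and *Prmt2* (1.46, 1.37 and 1.37), and *Carm1* was lower. *Prmt5* and *Wdr77* were the other genes of the 5, with 1.24 (limma adjusted p = 0.0637) and 1.00 (limma adjusted p = 0.0798), both named after their values were seen. Of all genes tested, 11.4% were higher and 23.0% lower against wild type, and 12.9% and 24.1% against *10xPerf*.

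Of 21 other Tudor domain genes tested (24 were listed, and *Tdrd10*, *Tdrd15* and *Tp53bp1* were not found under those symbols or not tested), which act mostly in chromatin and splicing, 0 passed in *10xPerf* against wild type, and 4 were higher and 2 lower in *10xBulge*. The lower ones were *Akap1*, an anchor protein of mitochondria with a Tudor and a KH domain and the highest mean of the list (log2 fold change -4.97, limma adjusted p = 8.87e-05), and *Sgf29*, a subunit of the SAGA complex (-3.80, limma adjusted p = 0.000112). *Akap1* was at 42891 (N1) and 24464 (N2) normalized counts in the wild-type mice, 29620 (N3) and 37038 (N4) in the *10xPerf* mice, and 1563 (N5) and 682 (N6) in the *10xBulge* mice. Among the higher ones were *Phf19* (1.75, limma adjusted p = 0.0652), *Spin1* (1.60, limma adjusted p = 0.0296) and *Uhrf2* (1.12, limma adjusted p = 0.0773). Against *10xPerf* 2 were higher, *Phf19* and *Spin1*, and *Akap1* and *Sgf29* were lower. The higher and lower shares of all genes were 11.4% and 23.0% against wild type, and 12.9% and 24.1% against *10xPerf*. With N1 and N2 both kept, no germ granule member had a log2 fold change beyond 1.06 in either direction against wild type. Without N1 those in *10xBulge* were -1.53 for *Rnf17*, -1.27 for *Tdrd7* and -1.11 for *Tdrd3*, and without N2 that of *Tdrd5* was 1.66.

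**Figure D5:**
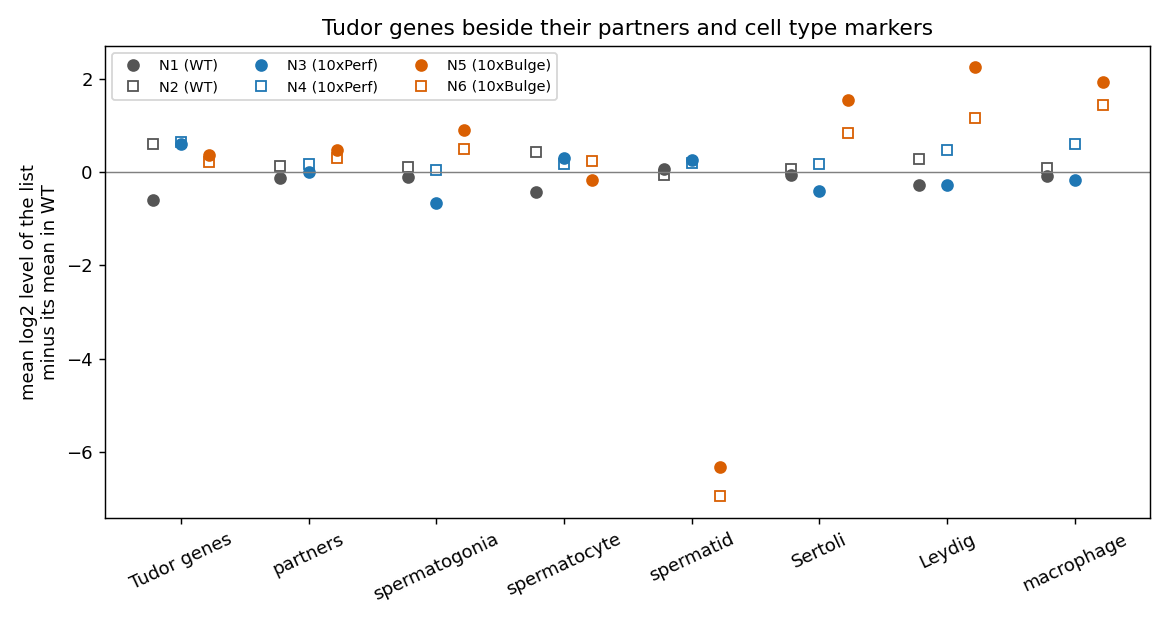
Mean log2 level of the 10 Tudor domain genes, their 17 partners and 6 lists of cell type markers in each library, minus the mean of N1 and N2. The spermatid markers of N5 and N6 lie more than 6 below wild type, whereas the Tudor domain genes of the knock-in libraries lie between N1 and N2 or just above N2.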

How the data were processed

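Total RNA of adult testes was sequenced after depletion of ribosomal RNA. Per the study's methods, the authors quantified reads with salmon and its GC correction on GRCm39 with Ensembl transcripts, and deposited normalized counts per gene from DESeq2, a signal that is not whole reads. The deposited log2 fold changes and adjusted p-values of the authors' own comparisons were not used, and every numeric column was matched. MILI and MIWI immunoprecipitation libraries were not used here.

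A gene was tested where 2 or more libraries reached 10 normalized counts. All 6 libraries entered a single limma model of log2(value + 1) by genotype (limma 3.58.1, R 4.3.3, trend option on), and p-values were adjusted by Benjamini-Hochberg over all genes tested. No count test was run, since the table holds normalized values. Fold changes on this scale understate changes of low genes. The smallest p of an exact permutation of 2 against 2 libraries is 0.333. In simulated data for 23782 genes, with 200 changed between *10xBulge* and wild type, 82% of changes of 2 and 0% of changes of 1 on the log2 scale were recovered. The changed genes were drawn from those of higher level only. In the real comparison 11.4% of genes were called higher and 23.0% lower, a far larger share than was simulated. The threshold on the adjusted p depends on that share, so that the recovered percentages do not carry over to these data. The 10 genes, the gene lists and the tests were chosen with earlier results of these data known. Besides all 10 genes and *Ythdc2*, each list names up to 3 genes past the threshold with the largest change in a direction and the gene with the highest mean, and of the marker lists the text gives counts. Transcript length and GC content came from the longest GENCODE M21 transcript (GRCm38), found for 99.3% of tested genes. Reads per library were estimated by dividing the library sum by its most frequent low value, taken as 1 read. Only 17.6% of genes above 0 were whole multiples of that value in every library (tolerance 0.001). The alternatives were other scalings, filters, pseudocounts, thresholds and fits, removal of the GC trend (loess, span 0.3), and each library left out. No gene of the family shares its sequence with another gene by the table's own column. Figures were drawn with matplotlib 3.10.9. 1 promoter stretch is not reported here.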

Additional observations from a re-analysis of the deposited data

How the results depend on the processing

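In *10xBulge* against wild type, 0 genes of the family were higher and 0 lower. The higher count became 3 with library totals, 1 with the upper quartile and 2 with the GC trend removed, and lay between 0 and 4 when 1 library was dropped, and the lower count became 1 with the GC trend removed. Over all genes, 24.4% were called higher with library totals, 12.9% with the upper quartile and 16.7% with the GC trend removed. The last setting called 26.3% lower, and the main fit called 11.4% higher and 23.0% lower. In *10xBulge* against *10xPerf*, 0 were higher and 1 lower, against 12.9% and 24.1% of all genes. With library totals 1, *Tdrd9*, was higher and 0 lower, against 21.5% and 21.7% of all genes. The lower count was 2 in a model of the compared genotypes alone, against 23% of all genes, and 0 at a threshold of 0.05, against 20.5%. It was 0, against 16.8%, with scaling to the mean of the 10 genes, a setting chosen after the values were seen. When 1 library was dropped, the log2 fold change of *Rnf17* ran from -1.79 to -1.12. In *10xPerf* against wild type the counts stayed 0 in every setting run.

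Where a library was left out, the lone library of its genotype was assumed to vary like the others. Library totals shifted the median over all genes, to 0.15 for *10xPerf* and 0.36 for *10xBulge* against wild type and 0.18 between the lines. Directions turned for genes that were not past the threshold. With library totals, *Tdrd6* in *10xBulge* became 0.24, and between the lines *Tdrkh* became 0.24 and *Stk31* 0.16. Between the lines *Tdrkh* became 0.053 with the upper quartile and 0.30 with the GC trend removed, and *Stk31* became 0.27 with the latter. With scaling to the mean of the 10 genes, *Tdrd1*, *Tdrd3*, *Tdrd9*, *Tdrd12* and *Rnf17* in *10xPerf* became -0.20, -0.15, -0.38, -0.014 and -0.12, and between the lines *Tdrkh* became 0.32 and *Stk31* 0.24. With 1 library dropped, log2 fold changes that turned ran in *10xPerf* against wild type for *Tdrd1* from -0.27 to 1.12, *Tdrd3* from -0.061 to 1.01, *Tdrd7* from -0.18 to 1.48, *Tdrd9* from -0.012 to 0.50, *Tdrd12* from -0.033 to 1.25, *Rnf17* from -0.078 to 1.08. They ran in *10xBulge* against wild type for *Tdrd6* from -0.62 to 0.34, *Tdrd7* from -1.27 to 0.39, *Stk31* from -0.027 to 1.47. Between the lines they ran for *Tdrkh* from -0.11 to 0.10, *Tdrd5* from -0.40 to 0.52, *Tdrd12* from -0.043 to 0.12, *Stk31* from -0.54 to 0.36. What caused these turns was not tested. Scaling to the mean of the 10 genes left 29.3%, 8.02% and 35.7% of all calls higher in the 3 comparisons, against 48.7%, 33.2% and 34.9%.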
